A study of Mus musculus with 7 samples.

Results

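The nuclear genes of oxidative phosphorylation were taken from RNA-seq counts of lineage-depleted (lin-) marrow of mice with and without the HRP-2 gene. Members were chosen by name, as gene symbols of the Nduf subunit series, *Sdha* to *Sdhd*, the Uqcr genes, the Cox genes numbered 4 to 8 and the Atp5 genes. Of 25033 symbols, 85 carried such a name, and none of them was marked as a pseudogene. The 7 with under 10 reads summed over the 7 mice were left out, which gave 78 genes. By respiratory complex these were 34 genes of complex I, 4 of complex II, 8 of complex III, 15 of complex IV, where *Ndufa4* was counted, and 17 of complex V. The 7 genes left out were *Cox4i2*, *Cox7b2*, *Cox8b*, *Cox8c*, *Ndufa4l2*, *Ndufb4c* and *Ndufs5*.

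Oxidative phosphorylation is carried out in the inner mitochondrial membrane. Complex I takes electrons from NADH and complex II from succinate, ubiquinone carries them to complex III, cytochrome c carries them on to complex IV, and complex IV passes them to oxygen. The proton gradient built up on the way drives complex V, the ATP synthase. Most subunits are encoded in the nucleus, several core subunits of complexes I, III, IV and V are encoded in mitochondrial DNA, and blood stem cells are known to lean on glycolysis more than their differentiating progeny do.

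The study asked what loss of HRP-2, a chromatin reader encoded by *Hdgfl2* and a paralog of LEDGF/p75, changes in blood-forming cells. The 4 knockout mice (labelled Hrp2-/-) were systemic knockouts of the line C57BL/6N-Hdgfrp2<tm1b (KOMP)Wtsi>/Tcp, in which the deletion is not limited to a cell type, and the 3 wild type mice (Hrp2+/+) were their controls. The study's methods give an age of 6 to 8 weeks for marrow donors, with marrow from femur and tibia freed of red cells by lysis and of mature lineages by a progenitor isolation kit, and few knockout mice are reported to have survived to that age. No treatment is named in the labels, and each library was made from 500 ng of total RNA of 1 mouse, primed on the poly(A) tail so that each transcript gave 1 fragment near its 3′ end. The values used here, read counts scaled to a fixed library size (CPM), are therefore not divided by gene length. The counts per symbol do not rank all genes by expression, since some genes that every cell uses were listed nearly or wholly without reads: *Gapdh* at 0 to 3.53 CPM, *Cox20*, *Sco2* and *Pet117* at 0, and *Ndufs5*, a complex I subunit, with 1 read in the 7 libraries. The order of genes given here is thus an order of counted reads.

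The libraries held between 3525665 and 5605158 reads on genes, and the oxidative phosphorylation genes took between 1.60% and 2.00% of them. At this depth 3 reads corresponded to between 0.535 and 0.851 CPM before scaling, a floor that covers counting error only. *Hdgfl2* had a mean of 46.1 ± 3.42 CPM (SD) in the wild type mice and stood at 2.53, 0.623, 1.49 and 0.498 CPM in knockout replicates 1 to 4. The sources used here do not say which exon is deleted, so these 3′ reads measure the transcript's end and not the deletion itself. The ribosomal RNA precursor *Rn45s* made up 11.8%, 20.6% and 9.43% of the reads on genes in wild type replicates 1 to 3 and 4.94%, 9.21%, 13.6% and 18.6% in knockout replicates 1 to 4. The stem and progenitor markers *Kit*, a growth factor receptor (85.1 to 122 CPM), and *Cd34* (185 to 284 CPM) were present in every mouse. The 4 hemoglobin genes *Hbb-bs*, *Hbb-bt*, *Hba-a1* and *Hba-a2* were listed at 0 reads, and *S100a8*, a gene of maturing neutrophils, reached 1958 to 7152 CPM. No symbol of the 13 protein-coding genes of mitochondrial DNA was in the files used here, and their transcripts were not analysed.

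The genes of the complexes differed widely in counted reads, with a median of 173 CPM over the 77 that were tested against 28.2 CPM over the 11265 genes tested. Complex V took 33.3% of the summed CPM of the 78 genes, complex I 30.4%, complex IV 22.1%, complex III 11.0% and complex II 3.29%. The highest was *Atp5g3*, which encodes the c subunit of the rotor ring of ATP synthase, at 1063 to 1475 CPM. *Uqcrh*, the hinge protein of complex III, followed at 704 to 903 CPM, and *Atp5a1*, the alpha subunit of the catalytic head, at 738 to 842 CPM. The ranges of these latter 2 genes overlapped, so their order was not resolved. Within complex I the levels ran from a mean of 17.9 CPM for *Ndufs3*, a core subunit near the quinone site, to 453 CPM for *Ndufb8*, an accessory subunit of the membrane arm. In complex II the order was *Sdha*, *Sdhb*, *Sdhc* and *Sdhd*. *Sdha*, the flavoprotein that oxidizes succinate, lay at 228 to 279 CPM, above the 29.4 to 168 CPM that the other 3 genes spanned, while the ranges of *Sdhb*, *Sdhc* and *Sdhd* overlapped with their neighbours in that order.

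**Figure D1:**
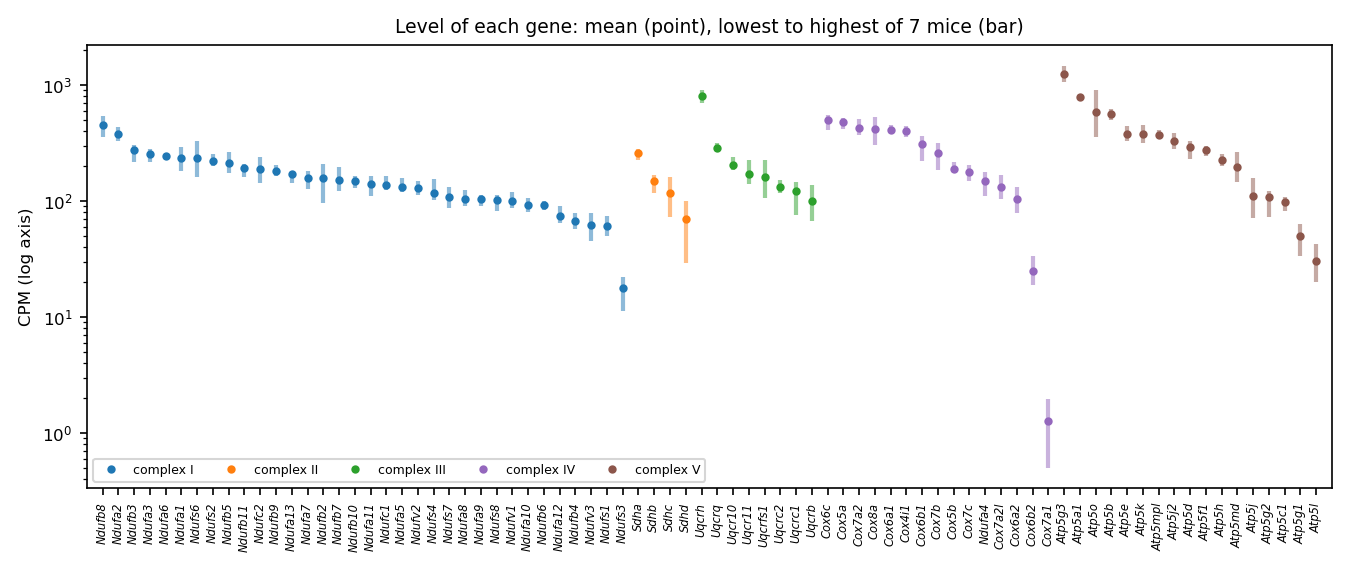
Level of the 78 oxidative phosphorylation genes, grouped by complex and ordered by mean. The vertical axis is CPM on a log scale, points are means over 7 mice and bars run from the lowest to the highest mouse. *Atp5g3* is highest and *Cox7a1*, at 0.498 to 1.94 CPM, is lowest.

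The levels were steady between mice. The median ratio of the highest to the lowest mouse was 1.39 over the genes tested, against 1.78 over all genes tested, whose levels were lower. The median coefficient of variation was 12.0%. *Atp5a1* varied little, by a ratio of 1.14, and so did *Uqcrq*, a small subunit of complex III, with 1.20. In 9 of the 77 genes the ratio was above 2, namely *Atp5j*, *Atp5l*, *Atp5o*, *Ndufb2*, *Ndufs6*, *Sdhc*, *Sdhd*, *Uqcrb* and *Uqcrfs1*.

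Promoters were read from the RefSeq table of GRCm38.p6, which held 69 windows for 64 of the 78 genes. Each window covered 250 bases before and 50 bases after a transcription start. Exact matches on either strand were sought for 4 motifs: the core GCATGCGC bound by NRF1, CCGGAAGT bound by ETS factors such as GABP, AAGATGGC bound by YY1, and TATAAA. The NRF1 core was found in 10 windows (14.5%) of these genes and in 2.71% of the 32851 windows in the table. The YY1 motif was found in 9 windows (13.0%) against 2.75% of the table, and the ETS motif in 5 windows (7.25%) against 3.89%. TATAAA was found in 7 windows (10.1%) against 13.6%. At least 1 of the first 3 motifs was present in 23 windows (33.3%), against 8.83% of the table. The windows of the table were not limited to genes tested here or matched to these genes in level. The windows had a median GC content of 57.3% against 52.7%, and the part of base composition in these shares was not tested. A match describes letters and is not evidence of binding. Shown here, on the minus strand of GRCm38.p6 and read 5′ to 3′, are 1 window with a match of each of the first 3 kinds, in capitals, and the window of the highest gene, *Atp5g3*, which held no match. They are *Ndufb8* (chr19:44555393-44555692, with AAGATGGC starting 39 bases after the start of transcription), *Uqcrh* (chr4:116075021-116075320, with CCGGAAGT on the opposite strand, so that its reverse complement is in capitals), *Cox6a1* (chr5:115348909-115349208, with GCATGCGC on both strands in overlapping positions) and *Atp5g3* (chr2:73911277-73911576).
Ndufb8: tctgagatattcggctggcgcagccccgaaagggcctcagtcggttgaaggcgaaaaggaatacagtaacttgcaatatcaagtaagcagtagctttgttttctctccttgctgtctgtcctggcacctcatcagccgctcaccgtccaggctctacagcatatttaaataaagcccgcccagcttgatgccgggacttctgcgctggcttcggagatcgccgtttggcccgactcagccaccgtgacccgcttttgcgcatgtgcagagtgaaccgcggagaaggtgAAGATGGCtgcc
Uqcrh: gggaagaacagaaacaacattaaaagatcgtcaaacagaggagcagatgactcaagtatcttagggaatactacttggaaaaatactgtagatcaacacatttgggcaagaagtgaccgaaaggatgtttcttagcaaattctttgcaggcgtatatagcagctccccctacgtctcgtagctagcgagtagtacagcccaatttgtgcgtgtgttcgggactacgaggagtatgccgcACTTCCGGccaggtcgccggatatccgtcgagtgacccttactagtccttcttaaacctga
Cox6a1: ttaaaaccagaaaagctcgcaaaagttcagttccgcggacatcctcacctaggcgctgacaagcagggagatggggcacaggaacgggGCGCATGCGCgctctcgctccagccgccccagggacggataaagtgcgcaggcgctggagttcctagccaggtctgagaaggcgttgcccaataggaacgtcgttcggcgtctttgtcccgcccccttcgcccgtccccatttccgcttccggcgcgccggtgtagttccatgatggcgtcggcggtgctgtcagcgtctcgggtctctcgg
Atp5g3: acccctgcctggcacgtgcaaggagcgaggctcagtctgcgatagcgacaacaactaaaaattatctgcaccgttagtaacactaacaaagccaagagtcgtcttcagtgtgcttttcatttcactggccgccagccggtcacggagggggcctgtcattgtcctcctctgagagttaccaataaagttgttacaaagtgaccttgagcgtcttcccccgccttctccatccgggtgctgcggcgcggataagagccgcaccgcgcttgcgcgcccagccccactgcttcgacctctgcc

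No oxidative phosphorylation gene passed the test for a difference between the genotypes. In edgeR's quasi-likelihood test with Benjamini-Hochberg adjustment over all genes, 0 of the 77 genes tested had an adjusted p under 0.25, where 2 of the 11265 genes (0.0178%) did. At an unadjusted p under 0.05 the count was also 0 of 77, against 409 genes (3.63%), and DESeq2 called 0 by either threshold. In 0 of the 77 genes did the CPM of the wild type and knockout mice fail to overlap, against 5.16% of all genes. In this bulk RNA, fewer cells of a type and less RNA per cell cannot be told apart. The mice are separate biological replicates in the labels.

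The fold changes were small as well as uncalled. The log2 fold changes of knockout over wild type ran from −0.37 for *Cox6b2* to 0.31 for *Cox6a2*, with a median of 0.03 against a median of −0.0014 over all genes. The median was 0.016 without knockout replicate 2 and 0.066 without wild type replicate 1. The standard errors were between 0.12 and 0.36, with a median of 0.15 against 0.23 over all genes. The 95% interval lay within a 1.5-fold change in either direction for 68 of the 77 genes (88.3%), which was so for 41.8% of all genes. A 2-fold change lay outside the interval of 75 of them, and the exceptions were *Atp5o* and *Sdhd*. The point estimate was above 0 for 50 genes and below 0 for 27, so 64.9% were above against 49.8% of all genes. These genes share mice and scaling, and their signs are not independent of each other.

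**Figure D2:**
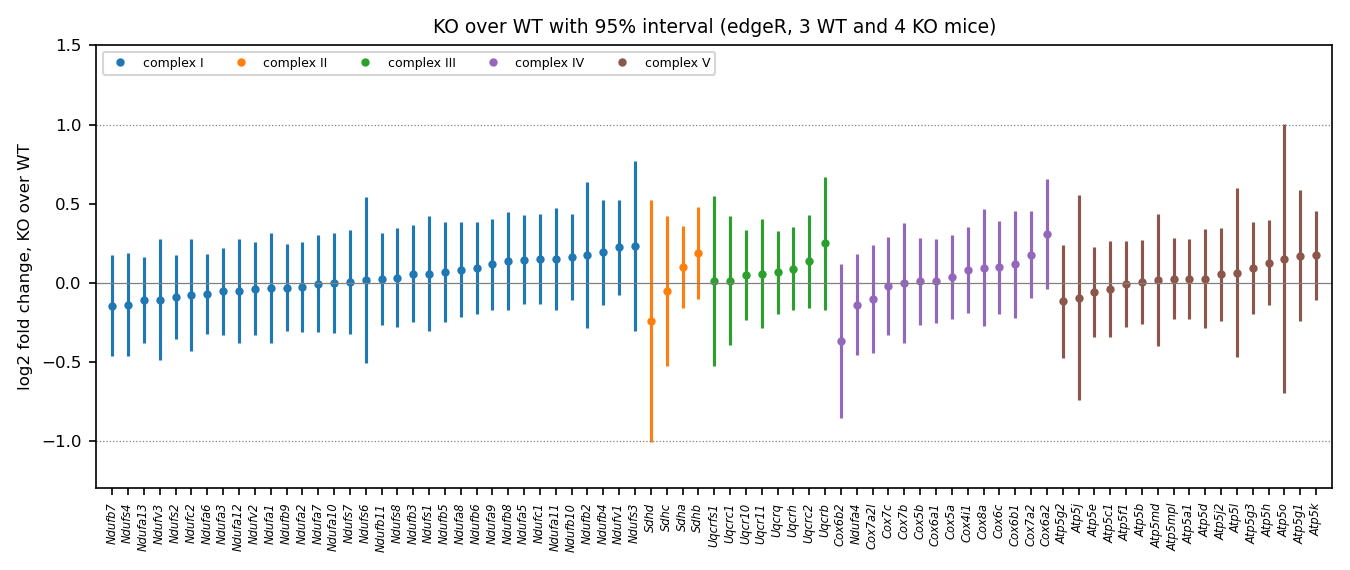
Log2 fold change of knockout over wild type for the 77 genes tested, grouped by complex, with 95% intervals from edgeR's quasi-likelihood fit to 3 wild type and 4 knockout mice. Every interval crosses 0, and dotted lines mark a 2-fold change.

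Summed over their genes, the complexes stood at close levels in the genotypes. Complex I, the NADH dehydrogenase, summed to 5444, 5604 and 5331 CPM in wild type replicates 1 to 3 and to 5316, 5727, 5577 and 5557 CPM in knockout replicates 1 to 4. The knockout mice spanned the wild type range on both sides, and the log2 ratio of the means was 0.02. It was 0.02 with reads divided by the library totals alone, and −0.02 with *Rn45s* left out of those totals. Neither scaling, here or below, used the factors of the reported one. On the reported scaling the ratio was 0.0052 without wild type replicate 3 and 0.042 without knockout replicate 1. The 34 genes were divided into 19 above 0 and 15 below. Among them *Ndufv1*, the subunit that binds NADH and the flavin, had the smallest p. It stood at 87.5, 102 and 86.4 CPM in wild type and at 98.7, 119, 97.2 and 114 CPM in knockout mice. Its log2 fold change was 0.22 (standard error 0.14, unadjusted p = 0.138, adjusted p = 0.999 by edgeR's quasi-likelihood test), and the genotypes overlapped. *Ndufb10*, another membrane arm subunit, had a wild type mean of 139.5 ± 9.62 CPM (SD, n = 3) and a knockout mean of 155.8 ± 8.40 CPM (SD, n = 4). *Ndufb8* and *Ndufa2*, the highest genes of the complex, had log2 fold changes of 0.14 and −0.03, with standard errors of 0.15 and 0.14. The estimate of *Ndufb8* was 0.03 without wild type replicate 3 and 0.29 without wild type replicate 2. The estimates of *Ndufs3* (0.23, standard error 0.26) and of the accessory subunit *Ndufb4* (0.19, standard error 0.16) were among the 5 most positive of the 77, and those of the accessory subunits *Ndufb7* (−0.15, standard error 0.15) and *Ndufs4* (−0.14, standard error 0.15) among the 5 most negative. The estimate of *Ndufs3* was 0.02 without wild type replicate 3 and 0.42 without wild type replicate 1.

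Complex II, succinate dehydrogenase, also belongs to the citric acid cycle. Its 4 genes summed to 575, 548 and 635 CPM in wild type and to 605, 639.8, 617 and 563 CPM in knockout mice, with overlap and a log2 ratio of 0.05. This ratio was 0.01 with *Rn45s* left out of the library totals, −0.0061 as a difference of mean log2 levels, and 0.0033 without wild type replicate 2 to 0.11 without wild type replicate 3. *Sdha* stood at 228, 258 and 263 CPM in wild type and 276, 257, 279 and 256 CPM in knockout mice, a log2 fold change of 0.10 (standard error 0.12). *Sdhb*, the iron-sulfur subunit, stood at 158, 116 and 143 CPM in wild type and 153, 168, 149 and 165 CPM in knockout mice, a log2 fold change of 0.19 (standard error 0.14). That of *Sdhb* was 0.07 without wild type replicate 2 and 0.30 without wild type replicate 1, and that of *Sdha* was 0.04 without wild type replicate 1. The membrane anchor genes *Sdhc* and *Sdhd* were more variable. *Sdhd* was at 65.2, 101 and 67.2 CPM in wild type replicates and at 65.3, 74.0, 92.7 and 29.4 CPM in knockout replicates. Knockout replicate 4 was the lowest of the 7 mice by far, and it set much of the log2 fold change of −0.24 (standard error 0.34), which was −0.0053 without that mouse and −0.0118 without wild type replicate 2. *Sdhc* ran from 72.2 to 162 CPM, and both extremes were wild type mice.

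Complex III, cytochrome bc1, was the one in which the 8 estimates all lay above 0, from 0.01 to 0.25. None was called, and the summed levels overlapped, with 1999.9, 1859.8 and 1925 CPM in wild type and 2011, 2122, 1926 and 2087 CPM in knockout mice. The log2 ratio of the sums was 0.08, or 0.04 with *Rn45s* left out of the library totals. *Uqcrb*, a small subunit beside the quinone pocket, had the largest of these estimates, 0.25 (standard error 0.20), with 85.6, 67.2 and 118 CPM in wild type and 108, 139, 82.2 and 99.7 CPM in knockout mice. That estimate was 0.08 without wild type replicate 2 and 0.49 without wild type replicate 3. *Uqcrc2*, a core protein, had a wild type mean of 126 ± 14.3 CPM (SD, n = 3) and a knockout mean of 139 ± 14.0 CPM (SD, n = 4). *Uqcrh* had 777 ± 70.8 and 826 ± 56.5 CPM, and *Uqcrq* 282 ± 15.9 and 294 ± 20.3 CPM, in the same order.

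Complex IV, cytochrome c oxidase, summed to 3995, 3685 and 4039 CPM in wild type and to 4009, 4435, 3689 and 4154 CPM in knockout mice, with overlap and a log2 ratio of 0.06. This ratio was 0.02 with *Rn45s* left out of the library totals, and 0.015 as a difference of mean log2 levels. It was 0.016 without knockout replicate 2 and 0.10 without knockout replicate 3. The highest genes were *Cox6c*, with a wild type mean of 483 ± 62.7 CPM (SD, n = 3) and a knockout mean of 516 ± 63.7 CPM (SD, n = 4), and *Cox5a*, with 473 ± 23.3 and 484 ± 47.1 CPM. *Ndufa4*, once assigned to complex I and now to complex IV, was at 160.4, 158 and 154 CPM in wild type and at 110.4, 177, 146 and 139.5 CPM in knockout mice, a log2 fold change of −0.14 (standard error 0.15). It was −0.03 without knockout replicate 1 and −0.26 without knockout replicate 2.

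Complex IV is the complex with the most tissue isoforms, and most of its counted reads lay on the ubiquitous ones. *Cox4i1* made up at least 99.9% of the *Cox4* reads in every mouse, *Cox8a* was the sole gene of the *Cox8* group with reads, and *Cox7b* the sole one of its pair. *Cox7a1*, the heart and muscle isoform, had 40 reads in all and at most 0.343% of its group, too few to be tested. A gene listed at 0 may be uncounted, as *Gapdh* shows. *Cox7a2*, its counterpart in other tissues, took 71.1% to 82.0% of that group, and *Cox7a2l*, which takes part in the assembly of supercomplexes, took 17.8% to 28.6%. Among the isoforms known from other tissues, *Cox6a2* and *Cox6b2* had enough reads to be tested.

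*Cox6a2*, known as the heart and skeletal muscle isoform of subunit 6a, was present at 78.3, 109.5 and 89.8 CPM in wild type and at 132, 121, 87.6 and 116 CPM in knockout replicates. It had the smallest p of the 77 genes and the largest positive estimate, a log2 fold change of 0.31 (standard error 0.16, unadjusted p = 0.0796, adjusted p = 0.999 by edgeR's quasi-likelihood test). Knockout replicate 3 lay within the wild type range. *Cox6a2* made up 16.5%, 19.4% and 19.3% of the *Cox6a* level in wild type and 25.6%, 23.6%, 17.1% and 20.7% in knockout mice, so the shares overlapped. *Cox6a1*, the ubiquitous isoform, was at 410 ± 40.7 and 413 ± 28.9 CPM. *Cox6b2*, known as the testis isoform of subunit 6b, was at 28.7, 33.9 and 23.9 CPM in wild type and at 18.9, 20.8, 18.9 and 31.1 CPM in knockout mice, with a log2 fold change of −0.37 (standard error 0.23, unadjusted p = 0.128 by edgeR's quasi-likelihood test). Knockout replicate 4 lay among the wild type mice and the other 3 knockout mice below them. Its share of the *Cox6b* level was between 5.04% and 13.2%. Which strand was counted is not stated, so reads of genes that overlap on the other strand cannot be told apart from those of the named gene.

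**Figure D3:**
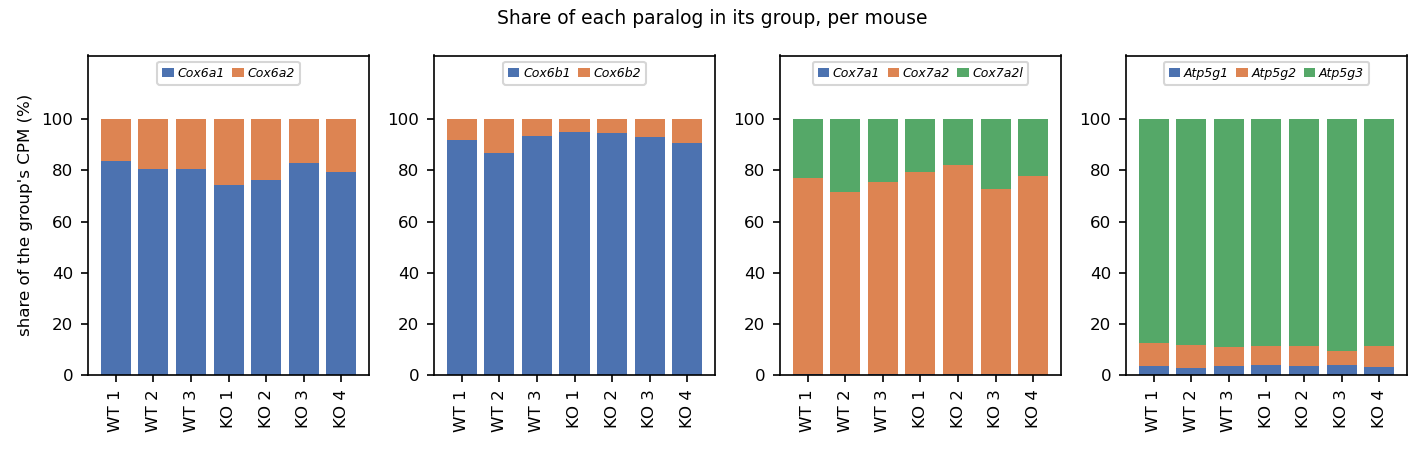
Share of each paralog in the summed CPM of its group (vertical axis, %), with 1 stacked bar per mouse, 3 wild type and 4 knockout, for the *Cox6a*, *Cox6b*, *Cox7a* and *Atp5g* groups. *Cox6a2* takes 16.5% to 25.6% of its group and *Atp5g3* 87.5% to 90.5% of its own.

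Complex V, ATP synthase, was the one complex whose summed level, on the reported scaling, did not overlap between the genotypes. Of all genes taken singly, 5.16% did not overlap. It stood at 5991, 5826 and 5934 CPM in wild type and at 6129.9, 6291, 6035 and 6074 CPM in knockout mice. The means were 5917 ± 83.8 CPM (SD, n = 3) and 6133 ± 112 CPM (SD, n = 4), a ratio of 1.04 and a log2 ratio of 0.05. The groups were also apart with DESeq2's size factors, but overlapped when the reads were divided by the library totals alone (5332 to 6334 CPM in wild type, 5597 to 6628 CPM in knockout) and when *Rn45s* was left out of those totals (6718 to 6993 and 6666 to 7219 CPM, log2 ratio 0.01). Of its 17 genes 12 had estimates above 0 and 5 below, and none was called. A summed level over chosen genes was given no test.

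The genes of complex V with the smallest p were *Atp5k*, the e subunit at the dimer interface, with a wild type mean of 351 ± 28.9 CPM (SD, n = 3) and a knockout mean of 396 ± 45.9 CPM (SD, n = 4), and *Atp5h*, the d subunit of the stalk, with 215 ± 15.3 and 234 ± 17.8 CPM. Their log2 fold changes were 0.17 and 0.13, each with a standard error of 0.13. *Atp5g3* was at 1217, 1063 and 1359 CPM in wild type and 1475, 1385, 1132 and 1178 CPM in knockout mice, a log2 fold change of 0.09 (standard error 0.14). It was 0.0059 without wild type replicate 2 and 0.18 without wild type replicate 3. *Atp5g1*, *Atp5g2* and *Atp5g3* encode the same mature c subunit with different import sequences, and reads of such close copies can be divided by alignment. *Atp5g3* supplied 87.5% to 90.5% of their summed level, *Atp5g2* 5.78% to 8.86% and *Atp5g1* 2.81% to 3.85%. *Atp5a1* stood at 786 ± 25.6 and 798 ± 45.5 CPM, a log2 fold change of 0.02 (standard error 0.12).

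**Figure D4:**
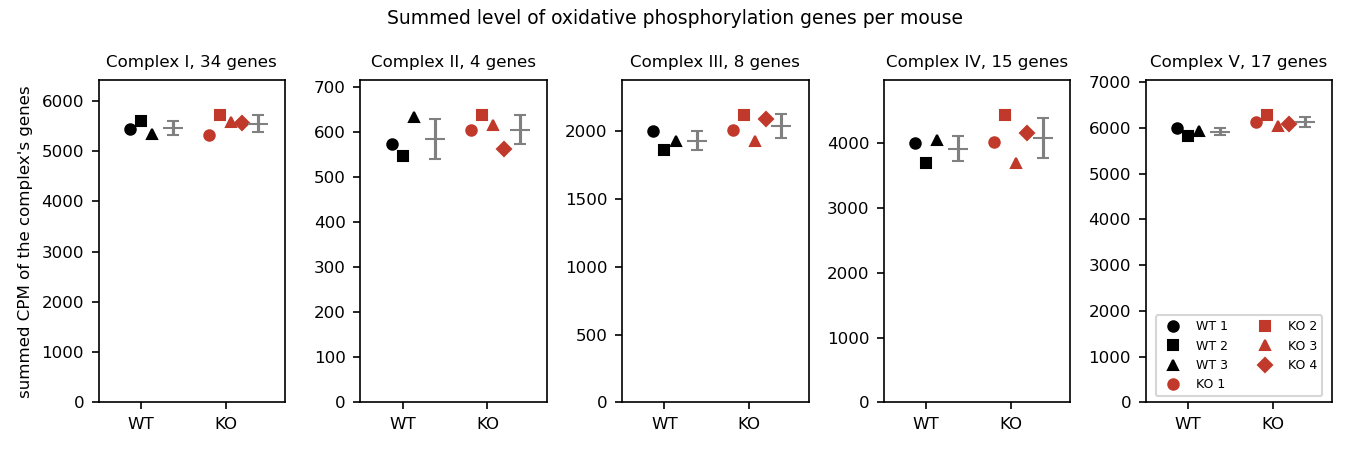
Summed CPM of the genes of each complex in each mouse (vertical axis from 0), wild type in black and knockout in red, with mean ± SD in grey. The genotypes overlap in complexes I to IV. In complex V, on the reported scaling, the 4 knockout mice, from 6035 CPM up, lie above the 3 wild type mice, at most 5991 CPM. They overlap there when reads are divided by library totals alone.

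Summed over the 78 genes, the level was 18005, 17523 and 17864 CPM in wild type and 18070.0, 19215, 17844 and 18436 CPM in knockout mice. These overlapped, and the log2 ratio was 0.05, or 0.01 with *Rn45s* left out of the library totals and 0.03 without knockout replicate 2. Markers of other cell types were summed in the same way, and no marker was called. The 14 neutrophil markers summed to 16669 to 19100 CPM in wild type and 18904 to 34456 CPM in knockout mice, 12 of them with estimates above 0 and 2 below, and the highest was knockout replicate 3. The summed levels were 451 to 470 CPM and 333 to 404 CPM for 10 macrophage markers, 3076 to 3272 and 2209 to 3087 CPM for 12 eosinophil, basophil and mast cell markers, 1969.6 to 2135 and 1836 to 1983 CPM for 14 stem and progenitor markers, 358 to 491 and 252 to 464 CPM for 12 lymphoid markers, 367 to 688 and 352 to 612 CPM for 12 erythroid markers, and 245 to 389 and 108 to 949 CPM for 8 megakaryocyte markers, of which knockout replicate 4 had the most. The macrophage sums did not overlap between the genotypes, and those of the other lists did. Of the 8 macrophage markers tested 1 had an estimate above 0 and 7 below, 4 of the 8 had an unadjusted p under 0.05 (3.63% of all genes did) and 5 did not overlap (5.16% of all genes). Of the 12 eosinophil, basophil and mast cell markers 2 were above 0 and 10 below, 4 had an unadjusted p under 0.05 and 4 did not overlap. The stem and progenitor markers tested were divided 3 to 10, the lymphoid 4 to 8, the erythroid 2 to 6 and the megakaryocyte 5 to 2, above 0 first. An unadjusted p under 0.05 was found for 2 of 13 stem and progenitor, 2 of 12 lymphoid and 1 of 14 neutrophil markers. It was found for 0 erythroid and 0 megakaryocyte markers. Without overlap were 1 stem and progenitor marker, 1 lymphoid marker and 0 of the neutrophil, erythroid and megakaryocyte markers. The part of these cells in the levels of the oxidative phosphorylation genes was not tested.

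None of the related genes was called. Of 9 genes tested that were listed with oxidative phosphorylation but carry other names, 5 had estimates above 0 and 4 below. Their median was 0.04 and none was called. *Higd1a*, which associates with complex IV, had the smallest p, with a log2 fold change of 0.20 (standard error 0.15, unadjusted p = 0.207 by edgeR's quasi-likelihood test). Others were *Atpif1*, the inhibitor of ATP synthase and the highest of them, at 403 to 609.6 CPM, *Cycs*, cytochrome c itself, at 38.7 to 51.0 CPM, and *Cyc1*, the cytochrome c1 of complex III, at 57.4 to 90.7 CPM. Of 46 assembly factors 18 were above 0 and 28 below, with a median of −0.03 and none called. *Cox17*, a copper chaperone of complex IV, was the highest of them and had a wild type mean of 216 ± 9.98 CPM (SD, n = 3) and a knockout mean of 179 ± 28.7 CPM (SD, n = 4). *Nubpl*, an iron-sulfur protein of complex I assembly, was at 13.8, 6.72 and 8.50 CPM in wild type and at 6.02, 4.78, 6.35 and 4.73 CPM in knockout mice. These did not overlap, and the log2 fold change was −0.82 (standard error 0.36, unadjusted p = 0.0364, adjusted p = 0.999 by edgeR's quasi-likelihood test). It was 1 of 3 assembly factors of 46 without overlap, a share near the 5.16% of all genes. The others, of heme synthesis for complex IV, were *Cox15* (17.4 ± 2.95 and 12.0 ± 1.13 CPM, log2 fold change −0.54), and *Cox10* (62.7 ± 1.74 and 76.7 ± 6.93 CPM, log2 fold change 0.29).

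Of 17 regulators of mitochondrial biogenesis tested, 6 were above 0 and 11 below, with a median of −0.15, and none was called. The factors whose motifs were sought in the promoters were all present, *Nrf1* at 40.9 to 60.9 CPM, *Gabpa* at 18.9 to 28.0 CPM and *Yy1* at 155 to 206 CPM. *Gabpb2*, a beta subunit that pairs with *Gabpa*, had the smallest p of this list and a log2 fold change of −0.33 (standard error 0.17). *Ppargc1a*, a coactivator known from muscle and brown fat, was at most 1.87 CPM and was not tested. Of 19 genes of the citric acid cycle and pyruvate dehydrogenase, 10 were above 0 and 9 below, with a median of 0.0011 and none called. *Mdh2*, malate dehydrogenase, was highest, with a log2 fold change of 0.21 (standard error 0.14). *Pdhb*, a subunit of pyruvate dehydrogenase, had the smallest p and the opposite sign, with a log2 fold change of −0.23 (standard error 0.14, unadjusted p = 0.104 by edgeR's quasi-likelihood test). In 1 of the 19 the genotypes did not overlap, against 5.16% of all genes. This was *Dld*, at 32.5 to 38.4 CPM in wild type and 38.5 to 54.0 CPM in knockout mice (log2 fold change 0.27, standard error 0.18). Of 17 glycolysis genes 13 were above 0 and 4 below, with a median of 0.17 and none called. *Gpi1*, glucose-6-phosphate isomerase, was highest, at 365 to 482 CPM, with a log2 fold change of 0.14 (standard error 0.13). *Hk2*, a hexokinase, had 141, 109 and 150.9 CPM in wild type and 175, 153, 169 and 151.0 CPM in knockout mice, which just failed to overlap, with a log2 fold change of 0.28 (standard error 0.14, unadjusted p = 0.0697 by edgeR's quasi-likelihood test). *Hk1*, another hexokinase, did not overlap either and had the opposite sign. It was at 155, 183 and 158 CPM in wild type and 129, 138, 150.2 and 144 CPM in knockout mice. Its log2 fold change was −0.24 (standard error 0.13, unadjusted p = 0.0870 by edgeR's quasi-likelihood test). These were the 2 of the 17 glycolysis genes without overlap, where 5.16% of all genes did not overlap.

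Part of the variation of the oxidative phosphorylation genes between mice went with the share of *Rn45s*. Once the levels had been seen, the share of *Rn45s* in each library was added to the edgeR fit beside genotype, and its slope was tested over all genes. At an adjusted p under 0.25 the slope was called for 13 of the 77 genes (16.9%), 6 rising and 7 falling with the share, and at 0.05 for none. Over all genes 547 of 11265 (4.86%) were called, 272 rising (2.41%) and 275 falling (2.44%). The number of calls was not stable when 1 mouse was left out. The number of these genes called was 2 without wild type replicate 1 (2.43% of all genes called), 0 without replicate 2 (0.346%) and 0 without replicate 3 (0.330%). Without knockout replicates 1 to 4 it was 7 (2.14%), 1 (1.42%), 13 (5.34%) and 23 (12.0%). With the share in the fit, the number called for genotype was again 0 of 77.

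*Atp5o*, which encodes the OSCP subunit that joins the head of ATP synthase to its stalk, was at 515, 786 and 354 CPM in wild type and 462, 429, 916 and 643 CPM in knockout replicates. The 3 highest mice were wild type replicate 2 and knockout replicates 3 and 4, the same 3 libraries that had the largest shares of *Rn45s*. Its log2 level rose by 0.72 per 10 percentage points of *Rn45s* (adjusted p = 0.223 by edgeR's quasi-likelihood test). *Ndufs6*, a zinc-binding accessory subunit of complex I, was at 205, 330.4 and 162 CPM in wild type and 187, 195, 299 and 259 CPM in knockout mice, with the same 3 mice on top. Its slope was 0.63 (adjusted p = 0.0751 by edgeR's quasi-likelihood test), the smallest adjusted p of the 13. The other rising genes were *Ndufb8*, *Ndufa11*, *Cox7a2l* and *Atp5l*, with slopes from 0.33 to 0.60.

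The falling genes were lowest in those 3 libraries. *Uqcrfs1*, the Rieske iron-sulfur protein of complex III, was at 155, 107 and 225 CPM in wild type and 183, 209, 120.0 and 143 CPM in knockout mice. Its slope was −0.59 (adjusted p = 0.131 by edgeR's quasi-likelihood test). *Cox7b*, a small subunit of complex IV, was at 287, 186 and 311 CPM in wild type and 285, 315, 204 and 239 CPM in knockout mice, with a slope of −0.45 (adjusted p = 0.174 by edgeR's quasi-likelihood test). The other falling genes were *Atp5g1*, *Atp5md*, *Cox8a*, *Ndufa1* and *Cox6b1*, with slopes from −0.50 to −0.38. Genes of one complex thus had slopes of opposite sign, and complexes I, IV and V each had genes called in both directions. The slopes of *Atp5o*, *Ndufs6*, *Uqcrfs1* and *Cox7b* kept their sign without any 1 mouse, from 0.61 to 1.01 for *Atp5o* and from −0.81 to −0.46 for *Uqcrfs1*.

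**Figure D5:**
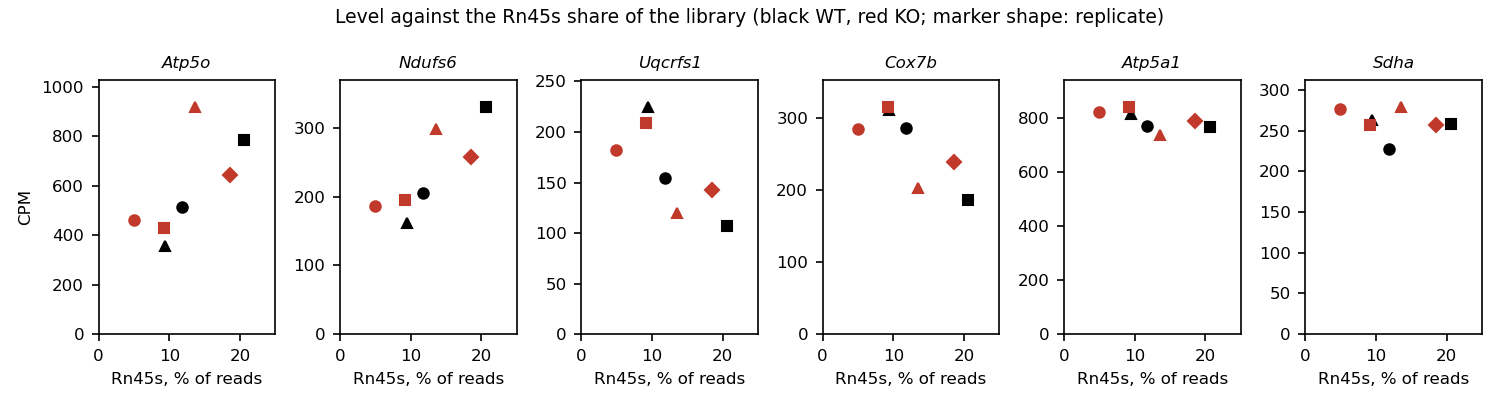
CPM of 6 genes (vertical axes from 0) against the share of *Rn45s* among the reads on genes (horizontal axis, %), with 1 point per mouse, wild type in black and knockout in red. *Atp5o* and *Ndufs6* are high and *Uqcrfs1* and *Cox7b* low in the 3 libraries above 13% *Rn45s*, while *Atp5a1* (738 to 842 CPM) and *Sdha* (228 to 279 CPM) are level.

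The longest transcripts of the 77 genes had a median length of 875 nt against 3110 nt over the genes tested that could be matched, and their last 500 nt had a median GC content of 49.4% against 43.6%. Across the 77 genes the slope on *Rn45s* rose with that GC content (Pearson's r = 0.33, Spearman's rho = 0.34), against a Spearman's rho of 0.04 over all matched genes. These are values across genes of the same 7 libraries, and genes are not independent replicates. The 7 falling genes had a median GC content of 39.6% (36.2% to 57.2%) and the 6 rising genes one of 47.8% (42.0% to 57.2%), with ranges that overlapped. The part of base composition in the slopes was not tested.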

How the data were processed

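RNA-seq was done on lin- marrow cells of 7 mice, 3 of them HRP-2 wild type and 4 knockout. The authors made libraries with a QuantSeq 3′ kit, aligned the reads to GRCm38 with STAR, quantified genes on Ensembl annotation, and deposited unnormalized counts of reads per gene symbol with 5 tally lines, which were left out. Of the reads tallied as on a gene, on no gene or ambiguous, between 27.0% and 31.6% in a library were on no gene. The strand counted is not given in the sources used here. The submitters' processing notes name FastQC, STAR and DESeq2.

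Counts were scaled with TMM factors, filtered with filterByExpr and tested with edgeR 4.0.16 (R 4.3.3) by the robust quasi-likelihood test over 11265 genes without a replicate block, with Benjamini-Hochberg adjustment and calls at 0.25, the threshold of the study. CPM used the same factors. Depth was 3525665 to 5605158 reads on genes per mouse, and the common biological coefficient of variation was 21.3%. The scripts were tested on simulated data. Among the 9 pairs of libraries of a common genotype, none was close enough in its counts to be 1 library deposited again.

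Genes named were, in each complex, the 2 highest and the 2 with the smallest p, the 5 most positive and 5 most negative changes, the paralog groups of the Cox and *Atp5g* genes, *Hdgfl2*, and of each pathway list the highest gene and the one with the smallest p. Genes outside that rule were named after their values were seen. Among them were *Atp5o*, *Ndufs6*, *Uqcrfs1*, *Cycs*, *Cyc1*, *Nrf1*, *Gabpa*, *Ppargc1a*, *Gapdh*, *Hk1*, *Dld*, *Cox10*, *Cox15* and the genes called for the slope on *Rn45s*. The members and lists were chosen with earlier results of these data known. Alternatives were DESeq2 1.42.0, other scalings and filters, *Rn45s* left out or as a covariate, the replicate number as a block, and leaving out each mouse. The slope on *Rn45s* was added after the data had been seen. Coordinates, promoters and names are from RefSeq on GRCm38.p6, where 84 of the 85 symbols matched, and transcript lengths from GENCODE.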

Additional observations from a re-analysis of the deposited data

Results flagged for a closer look

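Among 84 tests for 1 mouse lying far from the others of its genotype, run on the 4 knockout mice, 4 genes stood out, against 4.2 expected by chance at 1 in 20. Knockout replicate 3 had the lowest level of *Atp5d*, the delta subunit of ATP synthase, at 231 CPM, where the other knockout mice had 312 to 319.7 CPM. It was also lowest for *Ndufb11*, an accessory subunit of complex I, at 162 CPM against 202 to 205 CPM. Knockout replicate 1 was highest for *Atp5mpl*, a small subunit of ATP synthase, at 407 CPM against 354 to 362 CPM. Knockout replicate 4 was highest for *Cox6b2* at 31.1 CPM against 18.9 to 20.8 CPM.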

How the results depend on the processing

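No oxidative phosphorylation gene was called for genotype in any of the 15 other fits, and at most 1 had an unadjusted p under 0.05. The number of all genes called, 2, was 21 with DESeq2, 41 with no filter on low counts, 1 with at least 10 reads in every mouse, 8 with the *Rn45s* share as a covariate and 2 to 7 when 1 mouse was left out. The log2 ratio of complex V was 0.053 with library totals alone and 0.013 with *Rn45s* left out of those totals. Both were without TMM factors, and the cause was not tested. The number of members called for the *Rn45s* share was 0 to 23 when 1 mouse was left out, while 0.330% to 12.0% of all genes were called. The replicate numbers did not pair the mice (correlations of −0.02, −0.19 and −0.14 for numbers 1 to 3). With a block for replicate number, 1 gene and 0 members were called, the median of the members was 0.02, and the estimates changed sign for *Cox6a1* (−0.027), *Cox7b* (0.045), *Sdhc* (0.0067) and *Sdhd* (0.0060). *Cox7b* was at 0.0058 with DESeq2 and at 0.0057 with its size factors, and *Ndufa2* at 0.020 with the *Rn45s* share as a covariate. Leaving out 1 mouse gave log2 fold changes on both sides of 0 for *Atp5a1* (−0.0034 to 0.059), *Atp5g1* (−0.0083 to 0.30), *Atp5g2* (−0.20 to 0.025), *Cox5a* (−0.0059 to 0.099), *Cox6a1* (−0.047 to 0.093), *Cox6b1* (−0.051 to 0.23), *Cox6c* (−0.0058 to 0.18), *Cox7a2l* (−0.19 to 0.076), *Cox7b* (−0.20 to 0.14), *Cox8a* (−0.074 to 0.23), *Ndufa2* (−0.12 to 0.062), *Ndufb7* (−0.23 to 0.035), *Ndufs4* (−0.22 to 0.053) and *Sdhc* (−0.31 to 0.23). It moved by over 1.5 times, with the sign kept, for *Atp5h* (down to 0.078), *Atp5k* (down to 0.10), *Cox4i1* (0.022 to 0.15), *Cox6b2* (−0.56 to −0.24), *Ndufb10* (down to 0.11), *Uqcrc2* (0.085 to 0.24), *Uqcrh* (0.022 to 0.15) and *Uqcrq* (0.022 to 0.11), besides those given with their values. Of the 34 named members tested, 19 kept their sign in every fit. *Cox7a1* and the 7 genes under 10 reads had too few reads for a comparison, and the cause of their low counts was not tested.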

Other observations

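The genes that mark plasmacytoid dendritic cells were read beside *Cox6a2* after its level had been seen. *Siglech*, a surface lectin of these cells, was at 172, 321 and 219 CPM in wild type and at 263, 250.2, 205 and 233 CPM in knockout mice, a log2 fold change of 0.0045 (standard error 0.18). *Ccr9*, a chemokine receptor, was at 51.8 to 79.5 CPM in the 7 mice (log2 fold change 0.23, standard error 0.17), *Bst2* at 21.9 to 52.1 CPM (0.07, standard error 0.24) and *Klk1* at 23.7 to 66.6 CPM (−0.26, standard error 0.26). The part of these cells in the level of *Cox6a2* was not tested. *Itgad*, which lies next to *Cox6a2* on chromosome 7, was at most 7.71 CPM.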
